A study of Mus musculus with 4 samples.

Results

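The cells described here are 474 mouse thymocytes with a strong transcript signature of T cell receptor (TCR) signalling, out of 57354 deposited cells and 31722 cells kept for analysis. They were selected on measured transcripts, counted as unique molecular identifiers (UMIs, which count each captured transcript once). A kept cell had at least 200 detected genes, at least 1500 UMIs and at most 10% mitochondrial UMIs. A signalled cell held at least 4 UMIs in all of the 6 rule genes Tnfrsf9, Nr4a1, Nr4a3, Xcl1, Tnfrsf4 and Nfkbid and at least 2 UMIs of Cd3d, Cd3e and Cd3g. It held no Foxp3, C1qa, C1qb, C1qc or Cd79a UMI, at most 1 UMI of S1pr1 and Klf2, and at most 1 UMI of Top2a, Mki67 and Nusap1. The same gate with at most 3 UMIs of the 6 rule genes gave 19310 other gated thymocytes, which served as the reference.

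Thymocytes of 4 mice, in 2 pairs of control and knockout, were profiled on the 10x Genomics Chromium platform with the 3′ kit, version 3. The 2 control mice carried floxed Tox4 alleles without Cre (Tox4;F/F), and the 2 conditional knockout (cKO) mice carried the same alleles with Lck-Cre (Tox4;F/F;Lck+). The recombinase is driven by the proximal Lck promoter, so that deletion of exons 4 to 6 starts in DN3 thymocytes. Per the study's methods, the animals compared were sex-matched littermates aged 6 to 8 weeks, and the floxed allele was made in C57BL/6 eggs. The signalled cells numbered 97 in control 1, 142 in control 2, 83 in cKO 1 and 152 in cKO 2.

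A thymocyte whose TCR binds peptide and MHC strongly faces one of several known fates: death by negative selection, diversion into the regulatory or innate-like lineages, or further maturation. Calcium, ERK and NF-kB signalling then induce immediate-early transcription factors of the Egr and Nr4a families, the pro-apoptotic protein Bim (Bcl2l11) and receptors of the TNF receptor superfamily. Weaker signals, as in positive selection, induce Cd69, Cd5 and Egr1 with less of the Nr4a and TNF receptor genes.

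Among the 6 rule genes, Nr4a1 and Nr4a3 encode orphan nuclear receptors of the immediate-early response, Nfkbid encodes the nuclear NF-kB inhibitor-family protein IkBNS, Tnfrsf9 and Tnfrsf4 encode the costimulatory receptors 4-1BB and OX40, and Xcl1 encodes a chemokine that attracts cross-presenting dendritic cells. In GRCm38 with GENCODE M21 annotation, Nr4a1 lies at chr15:101254269-101274795 (+), Nr4a3 at chr4:48045153-48086447 (+), Nfkbid at chr7:30421732-30428746 (+), Tnfrsf9 at chr4:150914562-150946102 (+), Tnfrsf4 at chr4:156013843-156016612 (+) and Xcl1 at chr1:164931644-164935527 (-). RefSeq (GRCm38.p6) gave 9 promoter windows for the 6 genes, each of the 250 bases before a transcript start. Matches to known TCR-response elements were found in 3 windows. The 2 that overlap no exon of these genes are shown, as the upstream sequence of genes that define these cells. Capitals mark the matches, on either strand.

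Nfkbid, chr7:30422156-30422405, plus strand: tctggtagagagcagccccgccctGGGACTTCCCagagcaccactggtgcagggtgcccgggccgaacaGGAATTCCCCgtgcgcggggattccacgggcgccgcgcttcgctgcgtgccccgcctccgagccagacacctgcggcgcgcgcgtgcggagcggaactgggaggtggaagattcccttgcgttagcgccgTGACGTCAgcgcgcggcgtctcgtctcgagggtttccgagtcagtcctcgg
Nr4a1, chr15:101266596-101266845, plus strand: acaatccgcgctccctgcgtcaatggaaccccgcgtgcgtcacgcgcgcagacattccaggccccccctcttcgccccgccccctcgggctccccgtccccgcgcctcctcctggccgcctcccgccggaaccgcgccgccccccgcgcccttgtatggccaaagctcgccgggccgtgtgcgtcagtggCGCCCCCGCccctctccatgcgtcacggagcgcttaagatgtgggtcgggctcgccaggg

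Both printed windows lay inside the GENCODE interval of their gene, upstream of a RefSeq start, and overlapped 0 GENCODE exons of the rule genes. The Nfkbid window held 2 matches to the NF-kB consensus, starting 226 and 181 bases before the start, and 1 cyclic AMP response element, TGACGTCA, starting 51 bases before it. The Nr4a1 window held 1 match to the EGR site GCGGGGGCG on the reverse strand, 60 bases before the start. The third window, of Tnfrsf9 (chr4:150927749-150927998, plus strand), overlapped 1 annotated exon and is not shown. It held 2 overlapping NF-kB matches, GGGGATTTCC and GGGATTTCCC, and the AP-1 match TGAGTCA 15 bases before the start. Over 32851 RefSeq promoters of the same length, the NF-kB consensus occurred in 3.90%, TGACGTCA in 1.55%, GCGGGGGCG in 2.57% and the AP-1 site TGANTCA in 6.75%. The site AAAGGTCA of Nr4a proteins, present in 1.34% of promoters, and the CArG box, present in 1.47%, matched 0 of the 9 windows. A match is a string of letters and does not show that a factor binds there.

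The 4 libraries held between 42716798 and 62007453 UMIs. The share of deposited cells above the mitochondrial limit followed the replicate number. It was 48.3% (control) and 46.1% (cKO) for replicate 1, and 20.6% and 23.1% for replicate 2. The signalled cells contributed 631895, 847107, 523694 and 687606 UMIs in the order control 1, control 2, cKO 1, cKO 2, which is the order of all lists of 4 values below. Their median of 4991 UMIs exceeded the 2850 of other gated cells, and a rule on raw UMI sums is easier to pass for a deep cell. At a fixed 1500 UMIs per cell they held 863.5 genes against 919. Signalled cells of different libraries shared 0 barcodes, and 3 signalled barcodes also occurred among the kept cells of another library. Scrublet, a doublet caller, marked 3.38% of the signalled cells among the 5% of cells it scored highest, against 4.39% of other gated cells.

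The gate was checked for RNA of other cells. Of the signalled cells, 82 (17.3%) held at least 2 UMIs of H2-Aa, H2-Ab1, H2-Eb1 and Cd74, genes of antigen-presenting cells, against 8.83% of other gated cells. The share was 24.7%, 16.2%, 13.3% and 15.8% per library. Over the 8 dendritic cell markers, the summed level was 271, 1329, 220 and 302 CPM, UMIs scaled to a common total per library, with Itgax at 0 in all 4 libraries, so control 2 stood apart. A lone droplet of control 2 carried this excess: it held 379 of the library's 504 UMIs of the 4 antigen-presenting genes, 478 UMIs of Cst3 and 31 UMIs of Ccl22 among 19582 UMIs, and the highest other signalled cell held 7. Of the 5 macrophage markers, 0 were higher and 3 were lower than in other gated cells in all 4 libraries, and the same held for the 5 B cell markers. Of the 5 epithelial markers 2 were lower and 0 higher, and of the 3 neutrophil markers 1 and 0. The 3 erythroid markers were lower in all 4 libraries (median log2 ratio -6.65), at a summed 5.73 to 20.4 CPM in signalled cells against 14.1 to 3385 CPM in other gated cells, whose libraries stood apart. Hbb-bs, a beta-globin gene, was at 1184, 10.8, 2201 and 872 CPM there, and the lowest ratios of all genes were those of the globin genes Hbb-bs, Hba-a2, Hba-a1 and Hbb-bt. A UMI of Trdc or Zbtb16, markers of γδ and innate-like T cells, was found in 36 signalled cells (7.59%) against 10.6% of other gated cells.

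Nr4a1 was the most widely shared rule gene and Xcl1 the rarest. Nr4a1 was found in 360 signalled cells (75.9%), Nfkbid in 231 (48.7%), Tnfrsf9 in 205 (43.2%), Nr4a3 in 202 (42.6%), Tnfrsf4 in 158 (33.3%) and Xcl1 in 47 (9.92%). Without Nr4a1, 191 of the 474 cells would have missed the rule, against 71 without Tnfrsf9, 54 without Nfkbid, 47 without Tnfrsf4, 23 without Nr4a3 and 10 without Xcl1. Only 2 cells held all 6 genes, 86 held 1 of them and 165 held 2.

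Pairs of rule genes shared cells to different degrees. Of the 202 cells with Nr4a3, 176 (87.1%) also held Nr4a1, as did 199 (86.1%) of the 231 cells with Nfkbid, 88 (55.7%) of the 158 with Tnfrsf4 and 24 (51.1%) of the 47 with Xcl1. Of the cells with Xcl1, 36 (76.6%) held Tnfrsf9 and 12 (25.5%) held Nfkbid. Of the cells with Tnfrsf4, 94 (59.5%) held Tnfrsf9, and 124 cells held both Nr4a3 and Nfkbid, 61.4% of the former and 53.7% of the latter. The rule acts on the sum of these genes and so partly sets such shares, which describe the members and are no test.

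Levels were taken as CPM of the summed UMIs of a library's cells. Nr4a1 stood at 682, 794, 657 and 865 CPM in the signalled cells and at 11.1 to 16.2 CPM in other gated cells. Nr4a3 stood at 182, 216, 176 and 302 CPM, Nfkbid at 217, 261, 141 and 268 CPM, and Tnfrsf9 at 252, 301, 351 and 302 CPM. These 4 genes varied by less than 2-fold between libraries. Tnfrsf4 stood at 282, 301, 176 and 220 CPM, below the 678 CPM (mean of 4 libraries) of the 94 thymocytes with a Foxp3 UMI, the regulatory T cell marker. Xcl1 differed most between libraries, at 79.1, 312, 1008 and 65.4 CPM, and 147 of its 528 UMIs in cKO 1 came from 1 cell. These genes chose the cells, so their height over other gated cells is a property of the rule.

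**Figure D1:**
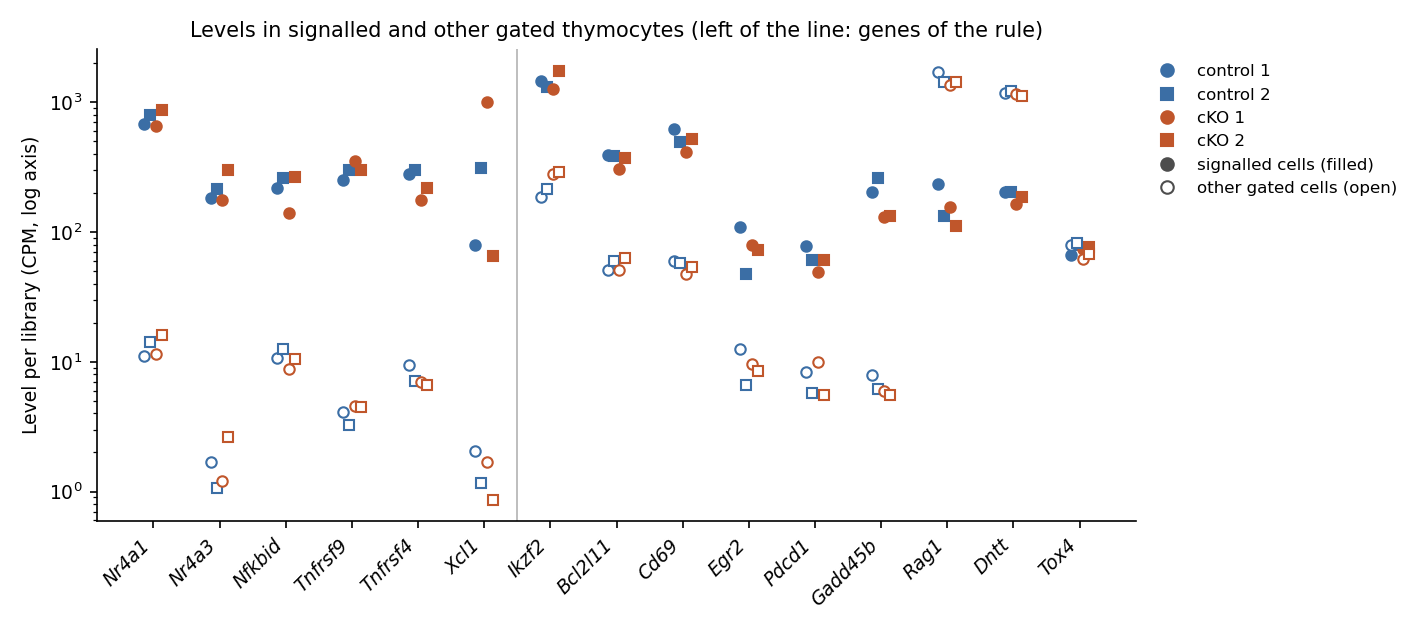
Level of each gene in CPM (log axis) per library, with filled symbols for the signalled cells and open symbols for other gated cells, blue for control and orange for cKO. Left of the grey line are the 6 rule genes, where the gap was fixed by the rule and Xcl1 spreads from 65.4 to 1008 CPM, and right of it are genes the rule did not use, of which Rag1 and Dntt are lower in signalled cells and Tox4 overlaps.

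The number of rule UMIs was spread widely. The median signalled cell held 8 of them, with library medians of 8, 8.5, 8 and 6.5 and a highest value of 168, and 85 cells sat at the threshold of 4. The 146 gated cells just outside, with 3 rule UMIs, had 832 CPM of Ikzf2, 148 CPM of Bcl2l11, 310 CPM of Cd69 and 30.3 CPM of Gadd45b (means of 4 libraries). The 85 cells just inside had 1028, 212, 408 and 65.1 CPM of the same genes. Rag1 stood at 157 CPM outside and 227 CPM inside, and Itm2a at 1057 and 1006 CPM, so the threshold cut through a gradient.

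Genes of the response took different levels along this gradient, which is the rule's own sum. Gadd45b, a stress-induced signalling protein, went from 5.09 CPM in gated cells with no rule UMI to 379 CPM in cells with 16 or more, and Rel, an NF-kB subunit, from 19.1 to 402 CPM. Ikzf2 (Helios) was highest at 8 to 15 rule UMIs, at 1748 CPM, and stood at 1404 CPM at 16 or more. Egr1 stayed between 307 and 394 CPM from 2 to 15 rule UMIs and stood at 206 CPM at 16 or more. That last bin was also the Xcl1 bin, with 1202 CPM of Xcl1 against 40.5 CPM at 8 to 15, and signalled cells with Xcl1 had 60.1 CPM of Egr1, so the bin cannot be told apart from the rule gene that filled it. Cd8b1 was at 2094 CPM with no rule UMI and at 249 CPM at 16 or more without a steady course, at 371 CPM with 3 rule UMIs, 691 with 4, 363 with 5 to 7 and 468 with 8 to 15. Tox4 varied between 66.0 and 79.9 CPM over the 8 bins. Cells with more rule UMIs were also deeper, with a median of 2799 UMIs in the first bin and 6081 in the last.

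**Figure D2:**
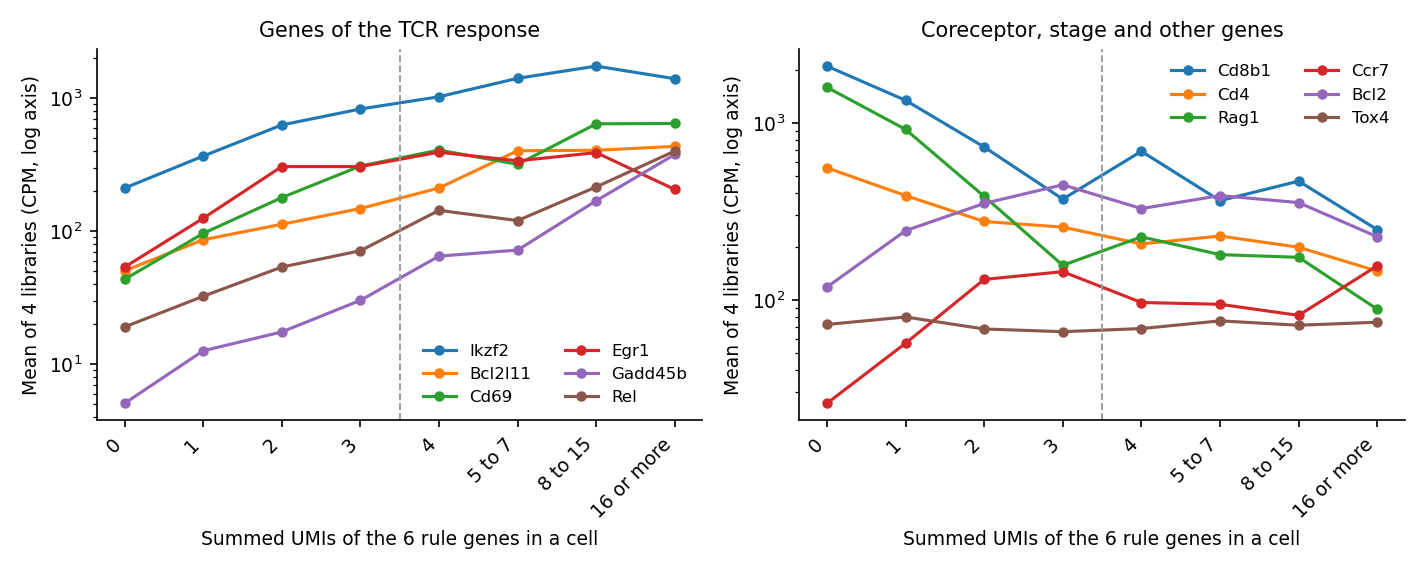
Mean of 4 libraries in CPM (log axis) for 12 genes in gated cells grouped by the summed UMIs of the 6 rule genes, with the threshold of the rule as the dashed line. Gadd45b and Rel are highest in the last group, Ikzf2 is highest at 8 to 15 UMIs, Cd8b1, Cd4 and Rag1 are lower in the last group than in the first but uneven between, with Cd8b1 at 371 CPM just outside and 691 CPM just inside the threshold, and Tox4 stays between 66.0 and 79.9 CPM.

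The remaining genes were compared between signalled and other gated cells as a description, with no test, since the rule separated these cells. Ratios are log2 ratios of the 4-library means after adding 1 CPM. Over 6968 genes with sufficient counts for testing, 1659 (23.8%) were higher and 2436 (35.0%) lower in the signalled cells of all 4 libraries, with a median of -0.09, and 445 (6.39%) were over 2-fold higher. These shares cover genes that passed the count filter, whereas list counts cover all members, low ones included (5 of 15 innate-like genes, 9 of 14 p53 targets, 11 of 14 death genes and 13 of 18 feedback genes passed), so the comparison between them is rough.

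Of 24 transcription factors of the early TCR response, 20 (83.3%) were higher in all 4 libraries and 0 lower, with a median ratio of 2.38. Ikzf2, a zinc-finger factor induced by strong TCR signals, was the most abundant, at 1461, 1310, 1270 and 1754 CPM against a mean of 242 CPM in other gated cells. At 1500 UMIs per cell, 64.3% of signalled cells held an Ikzf2 UMI against 3858 of 19310 other gated cells, with 379 of 474 and 31.1% before thinning. B cells of the same libraries, 26 cells with a median of 4866 UMIs, were set beside them: 0 of 26 held Ikzf2 when thinned (exact binomial limit 13.2%) and 2 of 26 before. These B cells were chosen for at least 2 Cd79a UMIs and no UMI of Cd3d, Cd3e, Cd3g, C1qa, C1qb or C1qc. That choice left out droplets with Cd3 RNA, so here and below the B cells may understate the background of thymocyte RNA. Egr3 (ratio 4.14) and Egr2 (2.93), the Egr factors most tied to strong signals, exceeded Egr1 (2.22) in ratio but not in level, since Egr1 stood at 421, 263, 309 and 301 CPM and Egr3 at 88.6, 72.0, 74.5 and 116 CPM. Nr4a2, the third member of the Nr4a family, had the largest ratio of the list, 4.71, at 36.4, 98.0, 55.4 and 72.7 CPM. All 5 of these genes were higher than in other gated cells in every library, and their control and cKO values overlapped.

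Several NF-kB genes of the list were higher. Rel stood at 146, 260, 252 and 255 CPM (ratio 3.33), and Relb (2.94), Nfkb1 (2.60) and Nfkb2 (2.47) were higher in all 4 libraries as well. Nfkb1 was the steadiest, at 392, 438, 391 and 446 CPM against 68.1 CPM in other gated cells. Nfkbia, the inhibitor that NF-kB itself induces, stood at 565, 669, 462 and 567 CPM with a smaller ratio of 1.12. Irf4, a factor graded by TCR signal strength, was low at 19.0, 24.8, 24.8 and 49.4 CPM (3.08). Junb (2.05) was higher in replicate 2 of both groups, at 321, 686, 264 and 537 CPM, and other gated cells had the same order, at 57.7, 186, 57.0 and 132 CPM.

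Of 18 negative-feedback genes, 12 (66.7%) were higher and 4 lower in all 4 libraries, with a median ratio of 1.28. Cd5, a surface inhibitor whose level follows TCR signal strength, stood at 747, 705, 623 and 553 CPM (ratio 1.80), and the phosphatase genes Dusp2 at 671, 632, 567 and 550 CPM (2.01) and Dusp5 at 203, 299, 134 and 214 CPM (2.62). Pdcd1, which encodes PD-1, was at 77.5, 61.4, 49.6 and 61.1 CPM (2.92). Spry1, an inhibitor of ERK signalling, had the largest ratio (3.35) with the widest spread, at 6.33, 29.5, 82.1 and 42.2 CPM. Cish (3.08) and Ubash3b (2.73), which restrain TCR signalling near the receptor, were below 50 CPM in each library. Socs1, a cytokine signalling inhibitor, went the other way, at 252, 286, 231 and 262 CPM against 393 CPM in other gated cells.

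Of 16 activation and costimulation receptors, 13 (81.2%) were higher and 1 lower in all 4 libraries, with a median ratio of 1.77. Cd69, the early activation antigen, stood at 624, 498, 412 and 519 CPM against 54.6 CPM (ratio 3.21), and Itm2a, a membrane protein induced at positive selection, at 1188, 1184, 1300 and 1277 CPM against 350 CPM (1.82). Against only those other gated cells with at least 4000 UMIs, the ratio of Cd69 was 2.80 and that of Itm2a 0.96. Cd200 (3.39), the TNF receptor gene Tnfrsf1b (3.02) and Cd40lg (2.87), the ligand of CD40, followed at lower levels. Cd2 (1.66) was higher, Cd28 (0.55) slightly so, and Cd27 stood at 692, 613, 565 and 598 CPM against 689 CPM.

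Death genes were split. Of 14, 4 were higher and 4 lower in all 4 libraries, with a median ratio of 0.18. Bcl2l11, which encodes Bim and drives death in negative selection, stood at 394, 388, 307 and 374 CPM against 56.4 CPM (ratio 2.68), and 32.3% of signalled cells held a UMI of it at 1500 UMIs per cell against 7.81% of other gated cells and 1 of 26 B cells (51.3%, 14.1% and 4 of 26 before thinning). Gadd45b stood at 203, 260, 132 and 134 CPM against 6.40 CPM (4.63). Bax had a ratio of 0.37, and Trp53inp1, a p53 target, was lower, at 168, 152, 120 and 148 CPM against 447 CPM. The 14 p53 targets had a median ratio of -0.00, with 4 higher and 5 lower in all 4 libraries and Eda2r at 0.

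Of 9 survival genes, 4 were higher and 1 lower in all 4 libraries, with a median ratio of 0.98. The BCL2-family genes Bcl2a1d and Bcl2a1b, NF-kB targets, stood at 109, 185, 160 and 145 CPM (ratio 4.03) and at 144, 220, 162 and 144 CPM (3.73). They are near-identical copies that share reads, so the split between them is uncertain. Bcl2 stood at 290, 259, 405 and 345 CPM (1.22), and its ratio was 0.36 against the deeper other gated cells. Birc3 (1.56), an inhibitor of apoptosis, was higher in all 4 libraries, and Mcl1 (0.07) in 2 of 4.

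The DP programme was low in these cells. Of 14 genes of the CD4+CD8+ DP stage, 13 (92.9%) were lower in all 4 libraries and 1 higher, with a median ratio of -1.97. Rag1, which cuts the TCR loci for rearrangement, stood at 236, 132, 157 and 111 CPM against 1482 CPM (ratio -3.21, and -2.42 against deeper cells), and Rag2 (-3.30), Arpp21 (-3.06) and Dntt (-2.62) were lower to a like degree. At 1500 UMIs per cell, 14.8% of signalled cells held a Rag1 UMI against 75.3% of other gated cells and 2 of 26 B cells (36.3%, 83.9% and 7 of 26 before thinning). Satb1 (-0.88), Tcf7 (-0.92) and the chemokine receptor gene Ccr9 (-1.41) were less reduced. The exception was Cd24a, the gene of the immaturity marker HSA, at 304, 429, 342 and 429 CPM against 233 CPM (0.69).

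Coreceptor transcripts were lower as well. Cd4 stood at 185, 177, 168 and 241 CPM against 531 CPM (ratio -1.46), Cd8a at 448, 315, 260 and 263 CPM against 1138 CPM (-1.82) and Cd8b1 at 559, 427, 349 and 356 CPM against 1970 CPM (-2.22). At 1500 UMIs per cell, 10.3% of signalled cells held Cd4 and either Cd8 gene, 12.4% Cd4 alone, 38.4% Cd8 alone and 38.8% neither. Other gated cells held 52.9%, 2.51%, 37.1% and 7.49% in the same classes. Before thinning, 40.9% of signalled and 72.8% of other gated cells held both. Of 26 B cells, which should lack both, 7 held Cd8 alone and 0 held Cd4 when thinned, so a single Cd8 UMI does not mark a CD8 cell here.

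Of 9 factors of the CD4 and CD8 lineages, 6 were higher and 3 lower in all 4 libraries, with a median ratio of 0.41. Zbtb7b, which encodes the CD4 lineage factor ThPOK, stood at 33.2, 20.1, 34.4 and 42.2 CPM (ratio 1.45), and Runx3, the CD8 lineage factor, at 82.3, 81.5, 64.9 and 74.2 CPM (0.99). Against other gated cells with at least 4000 UMIs these ratios were 0.44 and 0.12. Lef1 (0.45) and Tox (0.41) were slightly higher, and Bcl11b stood at 451, 449, 367 and 528 CPM against 1448 CPM.

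Of 9 migration receptors, 4 were higher and 3 lower in all 4 libraries, with a median ratio of 1.19. Ccr7, which leads thymocytes from cortex to medulla, stood at 87.0, 165, 93.6 and 87.3 CPM against 32.7 CPM (ratio 1.70). Cd44 (2.05), Itgb7 (1.55) and Ccr4 (1.44) were higher at under 100 CPM. At 1500 UMIs per cell, 10.3% of signalled cells held a Ccr7 UMI, against 3.14% of other gated cells and 33.5% of the 2129 thymocytes with at least 2 UMIs of the egress genes S1pr1 and Klf2. The unthinned shares were 27.6%, 6.61% and 69.0%. Of the 26 B cells, which can express Ccr7 themselves, 1 held it when thinned and 7 before.

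Innate-like and γδ genes did not move as a list, with 5 of 15 higher and 7 lower in all 4 libraries and a median ratio of 0.01. Cd160 (3.83), Il2rb (2.99) and Nkg7 (1.96) were higher, Cd160 at 53.8, 35.4, 103 and 18.9 CPM, while the γδ constant gene Trdc was lower at 38.0, 8.26, 19.1 and 34.9 CPM against 62.0 CPM. Of 4 regulatory T cell precursor markers, 3 were higher in all 4 libraries and 0 lower: Ikzf4 (2.34), Tnfrsf18, which encodes GITR, at 152, 210, 178 and 208 CPM (1.93), and Il2ra at 31.7, 47.2, 66.8 and 56.7 CPM (0.65). Ctla4 was at 1.45 to 22.9 CPM.

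Of 16 proximal TCR signalling genes outside the rule, 6 were higher and 8 lower in all 4 libraries, with a median ratio of -0.11, so they moved in both directions. Their summed level was 10691 to 11820 CPM in signalled cells and 13640 to 16176 CPM in other gated cells. Fyn (0.82), Zap70 (0.66) and Ptprc (0.59) were slightly higher and Lck (-1.02) and Trbc1 (-0.84) lower. Of 13 genes known to respond to tissue handling, 7 were higher and 1 lower in all 4 libraries, with a median ratio of 0.59. They include Fos (2.50), Ier2 (2.17), Junb and Egr1, which TCR signals induce as well. Of the heat-shock genes, Hspa8 stood at 1533, 1548, 1488 and 1435 CPM against 776 CPM (0.95) and Hsp90aa1 at 445, 447, 527 and 413 CPM against 303 CPM (0.59), both higher in all 4 libraries, whereas Dnajb1 was lower in all 4 (-0.38) and Hspa1a was at 0. The part of handling in these levels was not tested.

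Outside the lists, the 10 genes with the largest ratios at 20 CPM or more were Tagap, Lad1, Tmem158, Ccl4, Rgs16, Fosl2, Trpm1, Pdcd1lg2, Arhgap20 and Cd83. Tagap, a signalling gene of activated T cells with a role in thymocyte migration, stood at 158, 125, 193 and 144 CPM against 2.07 CPM (ratio 5.67). Lad1 stood at 57.0, 75.6, 66.8 and 58.2 CPM against 1.33 CPM (4.81). Ccl4, a chemokine of activated lymphocytes, stood at 47.5, 64.9, 49.6 and 74.2 CPM against 2.08 CPM (4.28). Tmem158 was uneven, at 74.4, 28.3, 11.5 and 18.9 CPM.

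**Figure D3:**
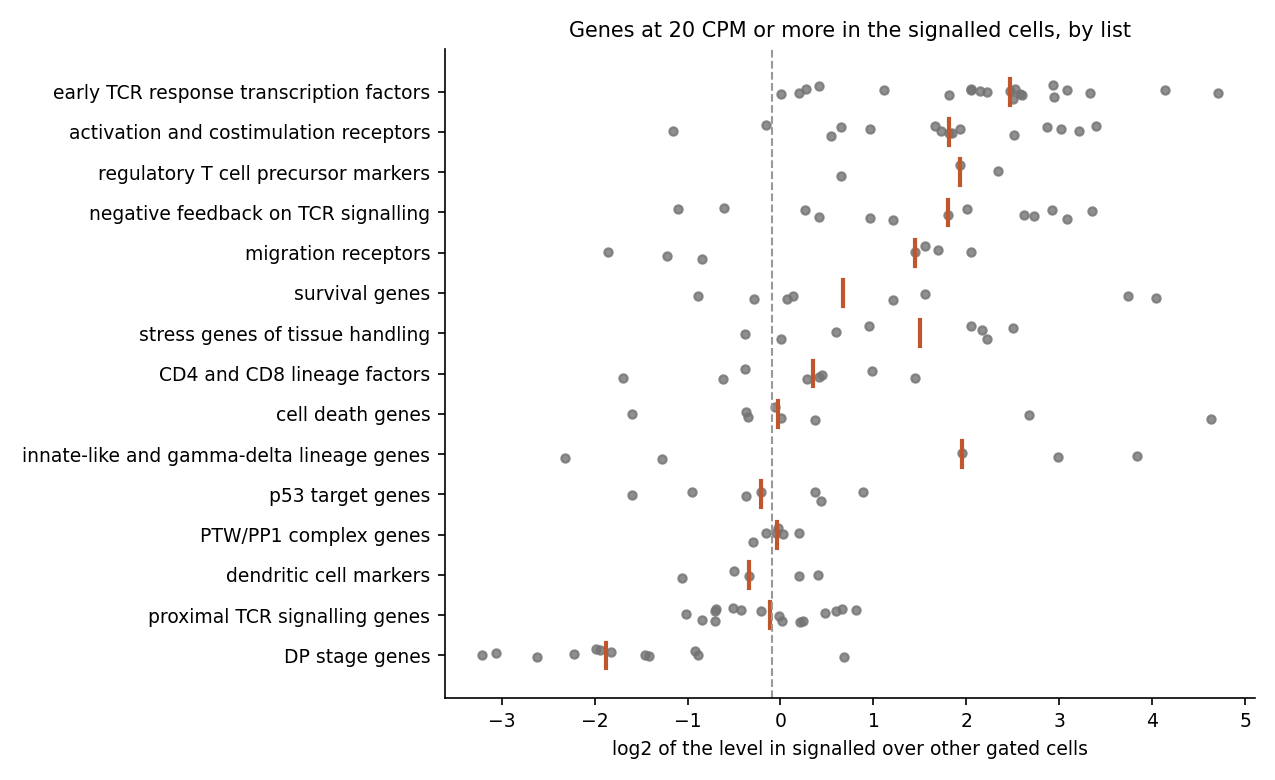
Log2 ratio of the level in signalled over other gated cells (means of 4 libraries) for genes at 20 CPM or more in the signalled cells, 1 point per gene, by list, with the list's median over the plotted genes as the orange bar and the median of all 6968 tested genes, -0.09, as the dashed line. Early TCR response factors and activation receptors lie mostly above 1, DP stage genes lie below 0 apart from Cd24a, and the medians of the PTW/PP1 and proximal TCR genes lie near 0.

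Values were also set beside the 2129 thymocytes with S1pr1 and Klf2, genes of mature cells leaving the thymus, and the 94 with Foxp3. Cells with at least 4 rule UMIs made up 8.22% (175) of the former, 47 of the 94 latter and 1.20% (62 of 5183) of cycling thymocytes. Bcl2l11 stood at a mean of 43.8 CPM in the S1pr1 and Klf2 cells and 64.9 CPM in the Foxp3 cells, well below the 307 to 394 CPM of the signalled cells, and Gadd45b at 10.5 and 2.86 CPM. Ikzf2 did not separate signalled from Foxp3 cells, which had 1563 CPM of it. The Foxp3 cells were higher in Il2ra (289 CPM), Tnfrsf18 (526 CPM) and Ctla4 (160 CPM). These comparisons carry no test, since Foxp3, S1pr1 and Klf2 chose the cells.

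Cells inside the group were then divided by a UMI of Ccr7, Tnfrsf4 or Xcl1, as a description over the 4 libraries. The 131 cells with Ccr7 (median 6165 UMIs) differed from the 343 without (4628 UMIs) in stage and signal genes. In every library they were lower in Cd24a (150 against 493 CPM, pooled over libraries, log2 -1.71), Pdcd1 (24.2 against 81.2 CPM, -1.71), Cd69 (293 against 623 CPM, -1.09) and Ikzf2 (891 against 1718 CPM, -0.95), and higher in Zbtb7b (56.5 against 19.8 CPM, 1.47), Itgb7 (1.05), Il7r (1.04) and Tnfrsf4 (383 against 189 CPM, 1.02). Ccl4 (-2.62) and Spry1 (-2.75) were lower in the Ccr7 cells of every library. Bcl2l11 was lower in 3 of 4, at 233 against 436 CPM.

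The 158 cells with Tnfrsf4 (median 5446.5 UMIs against 4579) carried the regulatory precursor genes. In every library they were higher in Il2ra (101 against 20.5 CPM, 2.25), Tnfrsf18 (364 against 89.5 CPM, 2.01), Ikzf4 (58.1 against 14.6 CPM, 1.92), Bcl2a1d (1.91), Lad1 (146 against 18.7 CPM, 2.90) and Ccr7 (207 against 59.1 CPM, 1.79). They were lower in Egr1 (160 against 410 CPM, -1.35), Cd24a (-1.61), Pdcd1 (-1.75) and Cd8a (-1.12). Cells with Ccr7 and cells with Tnfrsf4 both had low Cd24a and Pdcd1 and high Zbtb7b, while Il2ra was lower with Ccr7 (-0.96) and higher with Tnfrsf4. Some cells held UMIs of both genes and belong to both sets, so part of this likeness is built in.

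The 47 cells with Xcl1 (median 7946 UMIs against 4815) were a smaller and different set. In every library they were higher in Nkg7 (330 against 35.4 CPM, 3.18), Klrd1 (34.6 against 3.54 CPM, 2.97), Cd160 (173 against 24.8 CPM, 2.76), Il2rb (125 against 35.4 CPM, 1.79) and Tnfrsf9 (550 against 252 CPM, 1.12), genes of cytotoxic and innate-like lymphocytes apart from Tnfrsf9. They were lower in Egr1 (60.1 against 369 CPM, -2.60), Nfkbid (-2.16), Cd69 (146 against 587 CPM, -2.01), Cd4 (-1.54) and Bcl2l11 (152 against 412 CPM, -1.43). Xcl1, Tnfrsf4, Tnfrsf9, Nr4a1 and Nfkbid are rule genes, so a cell that reached 4 UMIs through Xcl1 or Tnfrsf4 needed fewer of the others, and the rule partly fixes how these genes and those that vary with them differ between the sets. The deeper sequencing of each of the 3 sets moved with the differences as well, and its part in them was not tested.

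**Figure D4:**
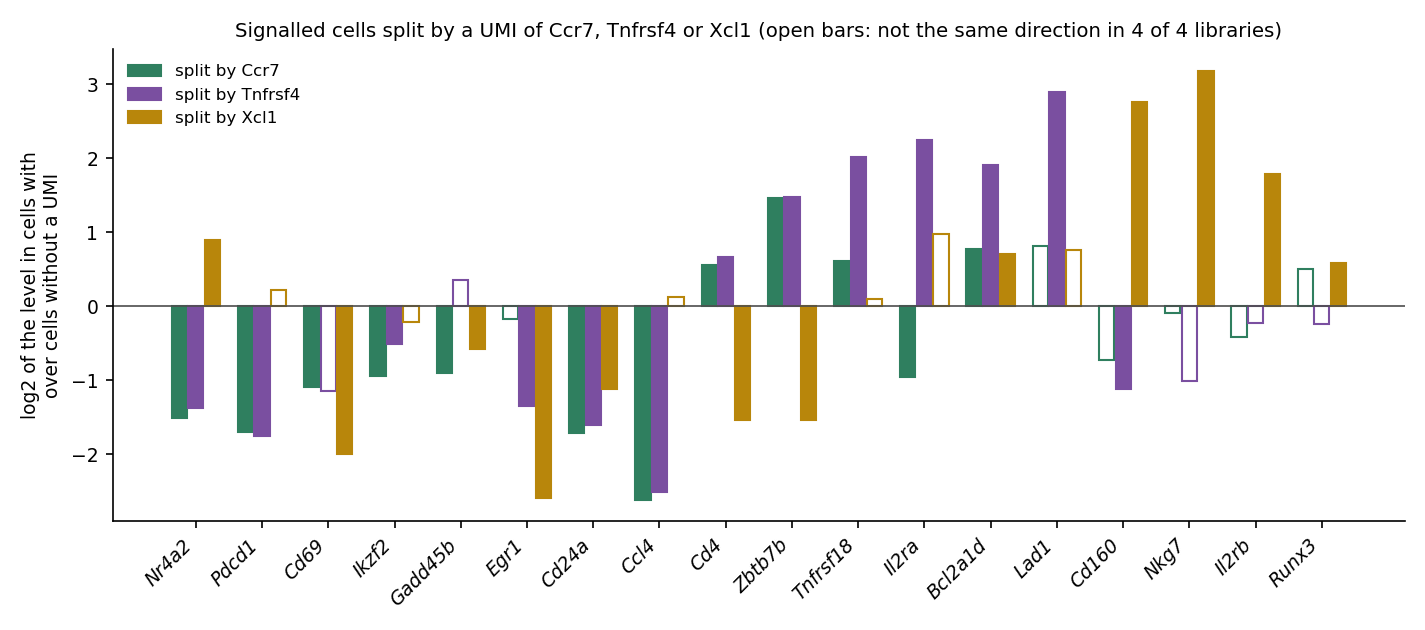
Log2 ratio of pooled CPM in signalled cells with a UMI over those without, for Ccr7 (green), Tnfrsf4 (purple) and Xcl1 (gold), with open bars where the 4 libraries did not share a direction. The Ccr7 and Tnfrsf4 bars point the same way for Cd24a, Pdcd1 and Zbtb7b, whereas Nkg7, Cd160 and Il2rb are above 1 only in the Xcl1 bars.

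The effect of Tox4 deletion on these cells was examined next, first through Tox4 itself. Tox4 (chr14:52279146-52296401, +) stood at 66.5, 79.1, 74.5 and 77.1 CPM in the signalled cells, from 42, 67, 39 and 53 UMIs. The groups overlapped, with a log2 fold change of cKO over control of 0.07 (SE 0.24, n = 2 per group, adjusted p 0.998, edgeR quasi-likelihood F test). The 3′ kit counts reads from transcript ends and the count does not separate exons. Where in Tox4 the reads lay was not examined, so the count was not taken as a check of the deletion. The 6 genes of the PTW/PP1 phosphatase complex, Tox4 among them, had a median ratio of -0.04 to other gated cells, with Ppp1cb at 0.20, Ppp1cc at -0.03, Ppp1ca at -0.05, Wdr82 at -0.16 and Ppp1r10 at -0.29. Ppp1r10, which encodes PNUTS, was at 53.8, 64.9, 84.0 and 90.2 CPM, with a log2 fold change of 0.56 (SE 0.24) that was not called (adjusted p 0.866, edgeR).

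The signalled cells made up 1.75% and 1.68% of kept cells in the controls (exact binomial 95% intervals 1.42 to 2.13% and 1.41 to 1.97%, which cover counting error only) and 1.30% and 1.35% in the cKO libraries (1.03 to 1.60% and 1.14 to 1.58%). Both cKO shares were below both control shares, with a difference of -0.389 percentage points. The exact two-sided permutation test gave p = 0.333, the smallest that 2 against 2 libraries allow, so no share could pass 0.05. As a share of gated cells the values were 2.77%, 2.40%, 2.42% and 2.19%, and the groups overlapped (difference -0.275 points, exact p 0.667). With the rule applied to cells thinned to 1500 UMIs, 189 cells passed, and the shares of kept cells were 0.630%, 0.720%, 0.624% and 0.470%.

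Among the signalled cells, both coreceptors were detected at 1500 UMIs per cell in 12.4% and 12.7% of control and 8.43% and 7.89% of cKO cells, a difference of -4.36 points (exact permutation p 0.333). Other gated cells showed a difference of -4.48 points in the same direction (54.3%, 55.2%, 47.9% and 52.6%). Cd4 alone was found in 11.3%, 8.45%, 14.5% and 15.8%, higher in both cKO libraries (exact permutation p 0.333). Ccr7 was found in 10.3%, 13.4%, 9.64% and 7.89%, a difference of -3.08 points (exact permutation p 0.333). At a mitochondrial limit of 5% the Ccr7 difference was 1.73 points, in the other direction, and with 1 library left out it lay between -4.61 and -1.54 points. Each of these intervals overlapped between groups, as a library had between 83 and 152 cells.

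**Figure D5:**
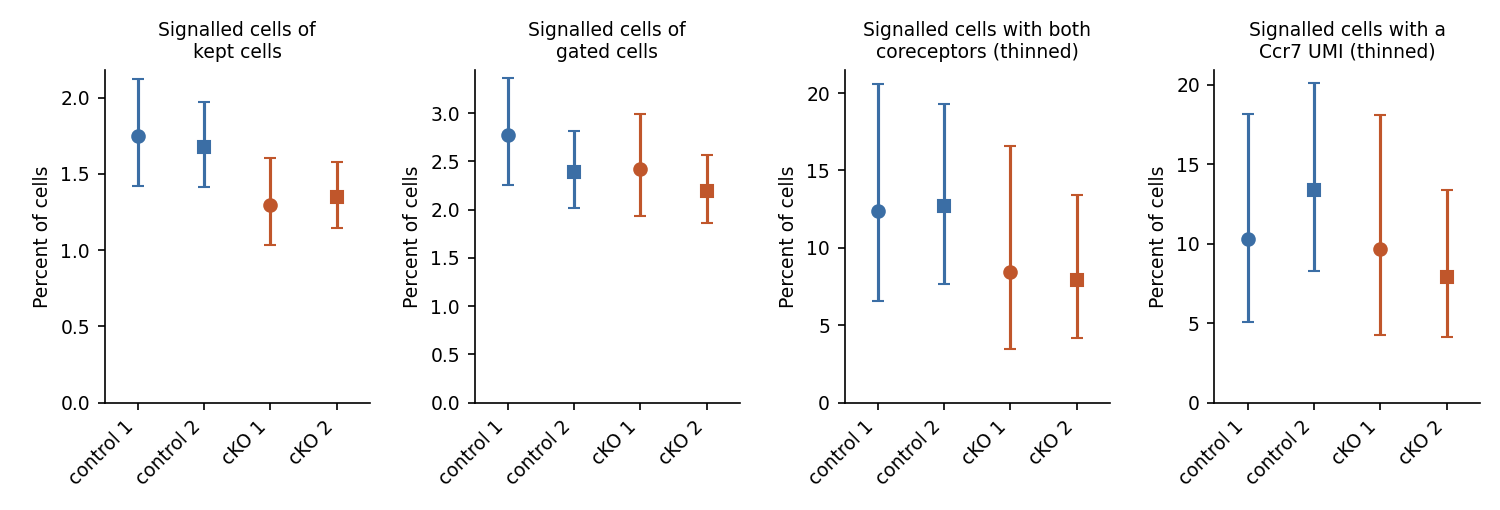
Percent of cells per library for 4 shares, with exact binomial 95% intervals (counting error only), controls in blue and cKO in orange. Both cKO points lie below both control points for the share of kept cells (1.30% and 1.35% against 1.75% and 1.68%), both coreceptors and Ccr7, the share of gated cells overlaps between groups, and the intervals overlap in every panel.

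Gene by gene, the genotype comparison used the UMI sums of the signalled cells, with the 19 genes of the rule and gate left out. Of 6968 genes tested, 1 was called at an adjusted p under 0.05 (0.0144%), and it was lower in cKO. At an unadjusted p under 0.05 there were 381 genes, 179 higher and 202 lower, and DESeq2 called 0 genes, with 60 at an unadjusted p under 0.05. For 2417 genes (34.7%), both cKO values lay on the same side of both control values.

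The called gene was S100a6, a calcium-binding protein of the S100 family (chr3:90612882-90624181, +). It stood at 31.7 and 44.9 CPM in the controls and 3.82 and 4.36 CPM in the cKO libraries, from 20, 38, 2 and 3 UMIs, with a log2 fold change of -3.17 (SE 0.51, adjusted p 0.0184, edgeR, n = 2 per group). The UMIs sat in few cells: 17 of 20 in 1 droplet of control 1 and 27 of 38 in 1 droplet of control 2. The control 2 droplet is the one with the antigen-presenting cell RNA, and the control 1 droplet also held all 19 UMIs of S100a4 in its library. Without the control 2 droplet, a comparison added after the values were seen, S100a6 was under the filter on low counts and 0 of 6946 genes were called (365 at an unadjusted p under 0.05, smallest adjusted p 0.438, edgeR). No fold is given for S100a6 without the droplet, since it was not tested there.

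The next genes by p did not pass the threshold in this fit, and their values are given as measured. With the replicate number as a block (replicate block), which the labels do not tie to a litter or day, 9 genes were called, among them S100a6, Actg1 (adjusted p 0.00824), AW112010 (0.0281), Cd74 (0.00237) and Rpl23a (0.0272, edgeR). Actg1 was also called at the 5% mitochondrial limit (0.0256) and with no filter on low counts (3.44e-04, edgeR). For fits that leave a single library in a group, only effect sizes are given. Without cKO 2 the Actg1 log2 fold change was -0.52. Without Xcl1 in the rule, Actg1 was the only call (-0.54, adjusted p 0.0115, edgeR) and S100a6 was under the filter. Actg1, a cytoplasmic actin, stood at 2573, 2448, 1720 and 1848 CPM, a fold change of -0.47 on the log2 scale (SE 0.09, adjusted p 0.0884, edgeR). AW112010, an interferon-responsive transcript, stood at 99.7, 118, 45.8 and 43.6 CPM (-1.28, SE 0.25, 0.0884), with 51 of its 100 UMIs in control 2 in 1 cell. Ephb6 (-1.54, SE 0.36), Cd74 (-1.52, SE 0.36) and Basp1 (-0.92, SE 0.22) had an adjusted p of 0.238 (edgeR). Basp1 was called at the 5% mitochondrial limit (-2.14, adjusted p 4.16e-04), which left 27 to 42 cells per library, and with no filter on low counts (0.0202, edgeR). Of the Basp1 UMIs in control 2, 42 of 152 came from 1 cell. Ephb6 was called with no filter (0.0202, edgeR), and its log2 fold change without control 1 was -1.63. Cd74 was called at the 5% limit and with no filter, and AW112010 with no filter. Without control 1 the log2 fold change was -2.13 for Cd74 and -1.39 for AW112010, and without cKO 2 -1.95 and -1.23. Cd74 was at 103, 364, 61.1 and 100 CPM, and 212 of its 308 UMIs in control 2 came from a lone cell.

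In the other direction, Chd3, a chromatin remodeller of the NuRD complex, stood at 187, 170, 281 and 302 CPM, a difference of 0.73 (log2, SE 0.17, adjusted p 0.238, edgeR). Izumo1r, which encodes folate receptor 4, stood at 91.8, 129, 195 and 192 CPM (0.81, SE 0.20, 0.245). The ribosomal protein gene Rpl23a (0.45, SE 0.11, 0.245) and the granzyme gene Gzma (1.62, SE 0.41, 0.271) were also among the non-overlapping higher genes with the smallest p values. Without a count filter Chd3 (adjusted p 0.0339) and Rpl23a (0.0146, edgeR) were called. With a single library in a group, the log2 fold change was 2.09 for Gzma without control 1 and 0.56 for Rpl23a without cKO 1. Control and cKO values were apart for each of these genes, as they were for 34.7% of all tested genes.

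No list held a called gene in either direction in this fit. The median log2 fold change of cKO over control was -0.10 over the 22 tested early TCR response factors, 0.12 over 13 negative-feedback genes, 0.06 over 15 activation receptors, -0.18 over 11 death genes, 0.04 over 9 survival genes and -0.22 over 13 DP stage genes, against 0.01 over all 6968 genes. It was 0.59 over the 3 tested regulatory T cell precursor markers and 0.41 over the 5 tested innate-like genes. All of these were higher in cKO, as were 3585 of the 6968 tested genes. Groups did not overlap for 2 of the 3 markers and 1 of the 5 innate-like genes. All 15 innate-like genes summed to 256, 230, 430 and 225 CPM, so cKO 2 was the lowest library. The median was 0.05 over 8 lineage factors, -0.13 over 7 migration receptors, -0.06 over 9 p53 targets, -0.12 over 8 handling genes, 0.07 over the 6 PTW/PP1 genes and 0.00 over 16 proximal TCR genes. Gadd45b, at 203 and 260 CPM in controls and 132 and 134 CPM in cKO, had the largest difference among the death genes (-0.79, SE 0.19, adjusted p 0.245, edgeR) and was singled out after its values were seen. Ikzf2 (0.15, SE 0.12) and Bcl2l11 (-0.18, SE 0.15) were not called. At a mitochondrial limit of 5%, with 27 to 42 cells per library, Bcl2l11 (-1.64, adjusted p 0.00271), Gadd45b (-1.80, 0.00118) and Bcl2a1b (-1.22, 0.0380) were called as lower in cKO, as were the dendritic markers Cst3 and Cd74 (edgeR). With no filter on low counts, 37 of 14025 genes were called, 9 of them list members. Among these were the dendritic markers Cst3, Cd74, H2-Aa, H2-Eb1 and Ccl22, with the control 2 droplet in the sums. Others were Gadd45b (-0.80, adjusted p 0.0247), Ccr9 (-0.57, 0.0315) and, higher in cKO, Spry1 (1.64, 0.00336, edgeR). Without cKO 2, a single cKO library was set against the controls, so only effect sizes are given. The log2 fold changes were 1.46 for Nkg7, 1.26 for Cd160 and 2.10 for Spry1. They were -0.93 for Junb, -0.86 for Ccr9 and -0.48 for Satb1. In the left-out cKO 2, Cd160 was lower than in both controls. The replicate block called 9 of 6968 genes, among them 3 list members, the dendritic markers Cst3 (adjusted p 0.0156), H2-Eb1 (0.0155) and Cd74 (0.00237, edgeR). With a single control library, again only effect sizes are given. Without control 1, the log2 fold changes of dendritic markers were -2.39 (Cst3), -2.13 (Cd74), -2.36 (H2-Aa), -2.95 (H2-Eb1) and -3.44 (Ccl22). Those of Junb and Gzma were -0.75 and 2.09. Without control 2, the log2 fold change of Spry1 was 3.23. Cd8a (-0.52, SE 0.17, adjusted p 0.699) and Cd8b1 (-0.46, SE 0.15, 0.704) were lower in both cKO libraries without being called, and Cd4 overlapped (0.21, SE 0.19). Over the 5 tested dendritic markers the median was -1.56, with the control 2 droplet in these sums.

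Whether deletion acted differently in signalled and other gated cells was tested as an interaction of genotype and cell set, with each library as its own block. Of 6968 genes, 0 were called (0.0%), with 354 at an unadjusted p under 0.05 and a smallest adjusted p of 0.195 (edgeR), that of AW112010 (interaction -1.56). The AW112010 interaction was called with at least 3 rule UMIs (adjusted p 0.0426) and with antigen-presenting RNA removed (0.00653, edgeR). It was also called with Trdc or Zbtb16 cells removed (0.0190) and with no filter on low counts (3.01e-05, edgeR). With a single library in a group, it was -1.94 without control 1 and -1.59 without cKO 2. For Cd8a the interaction was 0.07 (adjusted p 0.979), for Cd8b1 -0.21 (0.972) and for Tox4 0.33 (0.979, edgeR). Ikzf2 was at 187, 213, 279 and 291 CPM in other gated cells, and its interaction of -0.43 (SE 0.12) was not called (adjusted p 0.640, edgeR). The Ikzf2 interaction was called with cells of antigen-presenting RNA removed (-0.40, adjusted p 0.0142) and with no filter on low counts (-0.41, 0.0149, edgeR). It was -0.61 without control 2 and -0.63 without cKO 2. With cells of antigen-presenting RNA removed, 21 of 6269 genes were called in the interaction, among them Cd8b1 (-0.46, adjusted p 0.0181), Rag1 (-0.68, 0.0275), Myc (-1.22, 3.45e-04), Itm2a (0.50, 3.45e-04) and Ccr9 (-0.54, 6.52e-04, edgeR). Myc and Itm2a were also called with at least 3 rule UMIs (adjusted p 0.0347 and 0.0452) and with no filter (0.00140 and 7.93e-04, edgeR). Ccr9 was called with no filter too (-0.49, 0.00296, edgeR), and its interaction was -0.63 without control 2 and -0.68 without cKO 2.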

How the data were processed

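Single-cell libraries of thymocytes from 2 control and 2 cKO mice were read as the deposited UMI counts per gene and cell, which the authors made with cellranger 6.1.1 against mm10 (per the file headers and the study's methods), with no normalization. The deposited matrices held 204258388 UMIs. Columns of other series numbered 0. Cells were filtered and gated as described above (at least 1500 UMIs, at most 10% mitochondrial). UMIs of the signalled cells were summed per library, since cells are not replicates, and tested with edgeR 4.0.16 (R 4.3.3, TMM, filterByExpr, quasi-likelihood F test, Benjamini-Hochberg adjustment, 0.05), cKO against control, n = 2 per group. The interaction used 8 sums with a term per library. The SE given with an edgeR log2 fold change is its absolute value divided by the square root of the F statistic. DESeq2 1.42.0 was an alternative. Fits were tested on simulated data. Shares were compared by exact two-sided permutation tests (scipy 1.17.1), whose smallest p is 0.333, with exact binomial 95% intervals, which cover counting error only. Cells were thinned to 1500 UMIs at random for shares of cells with a UMI. Log2 ratios of levels used a pseudocount of 1 CPM, which understates ratios of low genes. Doublets were scored with Scrublet in scanpy 1.11.5 and kept, and leaving out the top 5% was an alternative.

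The members, the gene lists and the tests were chosen with earlier results of these data known. Named genes were the 6 rule genes, Tox4, Cd4, Cd8a and Cd8b1, called genes, the 5 non-overlapping genes with the smallest p in a direction with few calls, up to 4 genes per list by level and up to 4 by ratio at 20 CPM or more, and the 10 genes outside the lists with the largest ratios. Other genes named, among them Relb, Nfkb2, Egr2, Rag1, Rag2, Arpp21, Dntt, Lck, Dnajb1, Myc, Cst3, S100a4, Ccl22 and those of the splits by Ccr7, Tnfrsf4 and Xcl1, were chosen after their values were seen. Alternatives changed the rule threshold, mitochondrial limit, doublets, other-cell RNA, size factors, count filter, test and libraries. Some genes that this rule names are not reported here.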

Additional observations from a re-analysis of the deposited data

How the results depend on the processing

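The lower share of signalled cells among kept cells in cKO (-0.389 points) was -0.487 with at least 3 rule UMIs, -0.293 with at least 6, -0.587 at a mitochondrial limit of 5%, -0.128 with the rule on thinned cells, -0.275 as percent of gated cells and -0.274 with cells of antigen-presenting RNA removed, and it lay between -0.424 and -0.354 with 1 library left out. The difference in cells with both coreceptors (-4.36 points) was -3.65 with at least 3 rule UMIs, -6.22 with at least 6, -7.64 at the 5% limit and -10.00 unthinned, with 1 library left out between -4.63 and -4.09. The Ccr7 difference (-3.08 points) was 1.73 at the 5% limit, where 27 to 42 cells per library remained, and between -4.61 and -1.54 with 1 library left out. None of these could pass the exact test.

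The genotype test, with 1 call, gave 0 with at least 3 rule UMIs, with antigen-presenting RNA removed, without the control 2 droplet (added after the data were seen) and with DESeq2, 2 with at least 6 rule UMIs, 9 at the 5% limit, 37 with no filter on low counts and 9 with the replicate block. The replicate numbers were not shown to pair the mice (r = 0.028 over 6968 genes). With 1 library left out it gave 4 to 52 calls, 25 without control 1, 7 without control 2, 4 without cKO 1 and 52 without cKO 2, where the lone library is assumed to vary like the other group. S100a6 lost its call with at least 3 rule UMIs (-1.90, adjusted p 0.237), without control 2 (-2.86, 0.345) and with DESeq2 (-3.21). It was under the filter, and so not tested, at the 5% limit, with antigen-presenting RNA removed, without the control 2 droplet and with the rule without Xcl1 (added after the data were seen), where Actg1 was the 1 call. The interaction, with 0 calls, gave 8 with at least 3 rule UMIs, 21 with antigen-presenting RNA removed, 1 with cells holding Trdc or Zbtb16 removed, 19 with no filter and 0 to 20 with 1 library left out (19, 9, 0 and 20). The causes were not tested. With 83 to 152 cells and 523694 to 847107 UMIs per library, and 2 libraries per group, low genes rest on few cells.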
